A study of Mus musculus with 6 samples.

Results

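The 42 genes described here encode the machinery that copies DNA in S phase. They were taken as a named list from the 32285 genes of the deposited tables and all 42 were found in all 6 libraries. The list holds the origin-licensing factors Orc1, Orc6, Cdc6 and Cdt1, the replicative helicase (Mcm2 to Mcm7, Mcm10, Cdc45 and Gins1 to Gins4), and the polymerase, primase, clamp and clamp-loader genes Pola1, Prim1, Pold1, Pole, Pcna and Rfc2 to Rfc5. It also holds the single-strand binding genes Rpa1 to Rpa3, the fragment-joining and uracil-removal genes Lig1, Fen1 and Ung, the nucleotide-supply genes Rrm1, Rrm2, Tyms, Tk1 and Dut, and the chromatin-copying genes Uhrf1, Hells, Dnmt1, Slbp, Chaf1a and Chaf1b.

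Esophageal epithelial cells from C57B6 mice were sorted as integrin-b1 positive and DAPI negative, and were split into a Cyto-ID Low and a Cyto-ID High population; Cyto-ID is a dye that stains autophagic vesicles. Each population was grown as organoids in Matrigel for 15 days, in a medium with EGF, Noggin, R-Spondin and the kinase inhibitor Y27632 that both groups received. The organoids, depleted of dead cells, were profiled by single-cell RNA sequencing with a 3' UMI kit, in 3 libraries per group labelled F2, M3 and F6 in both. The labels give Cyto-ID status for the founder cells only. The 2 groups are called Low-founded and High-founded here. The labels do not say whether the 3 libraries of a group came from separate animals, so p-values measure the spread between these libraries, which may be technical.

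Before S phase, in G1, origin-licensing proteins load the MCM helicase onto DNA. GINS and Cdc45 then activate it, and polymerases held by the PCNA clamp copy the strands. Most of these genes are known targets of E2F transcription factors and are transcribed from late G1 into S phase. In stratified esophageal epithelium, division takes place mainly in the basal layer next to the matrix, and cells that move upward leave the cycle and switch on keratins such as Krt13 and Krt4.

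E2F binding motifs are the sequence feature that these genes are best known to share, so the promoter table was searched for 4 spellings of the motif, TTTGGCGC, TTTCCCGC, TTTGCCGC and TTTCGCGC, on both strands. Of the 42 genes, 36 had an entry (RefSeq, build GRCm38.p6, 250 bases before to 50 after each start), and 15 of the 36 (41.7%) held a match. Among all 27025 genes with an entry the share was 2.61%, and among the 9170 of them that entered the tests below it was 4.85%. The 4 promoters below are all those of members whose match lay before the start and whose 250 upstream bases overlapped no annotated exon, in order of expression. They are those of Mcm6 (chr1:128359706-128359955 on the minus strand), Mcm5 (chr8:75109259-75109508 on the plus strand), Pola1 (chrX:93632156-93632405 on the minus strand) and Uhrf1 (chr17:56304063-56304312 on the plus strand). Each is printed 5′ to 3′ on the strand of its gene and ends at the base before the start, and capitals mark the matched letters, which can belong to overlapping matches on both strands.
Mcm6: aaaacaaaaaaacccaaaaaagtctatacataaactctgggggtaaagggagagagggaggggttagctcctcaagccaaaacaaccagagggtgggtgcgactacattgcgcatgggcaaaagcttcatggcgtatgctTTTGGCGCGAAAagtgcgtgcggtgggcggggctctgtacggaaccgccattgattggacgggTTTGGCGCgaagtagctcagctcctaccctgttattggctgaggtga
Mcm5: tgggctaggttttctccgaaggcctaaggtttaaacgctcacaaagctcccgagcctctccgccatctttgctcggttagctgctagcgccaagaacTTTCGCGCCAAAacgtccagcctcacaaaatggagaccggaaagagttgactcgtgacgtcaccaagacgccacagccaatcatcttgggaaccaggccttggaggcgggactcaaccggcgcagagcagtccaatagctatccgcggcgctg
Pola1: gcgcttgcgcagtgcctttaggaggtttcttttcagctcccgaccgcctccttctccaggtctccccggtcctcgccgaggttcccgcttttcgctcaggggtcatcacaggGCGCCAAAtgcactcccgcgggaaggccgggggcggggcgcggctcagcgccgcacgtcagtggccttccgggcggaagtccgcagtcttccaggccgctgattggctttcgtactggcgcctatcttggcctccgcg
Uhrf1: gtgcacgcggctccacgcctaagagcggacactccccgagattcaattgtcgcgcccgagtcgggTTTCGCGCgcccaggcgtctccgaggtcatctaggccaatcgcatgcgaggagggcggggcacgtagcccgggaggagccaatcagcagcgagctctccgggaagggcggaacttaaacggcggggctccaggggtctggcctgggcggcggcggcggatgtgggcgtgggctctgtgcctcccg

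The Mcm6 window held 3 matches, of which a pair overlapped on opposite strands, and the Mcm5 window held 2 overlapping matches. Other promoter motifs were searched in the same way. The NF-Y motif CCAAT was found for 63.9% of the members and 42.8% of tested genes, the Sp1 motif GGGCGG for 77.8% and 70.6%, and the motif TTTGAA or TTCGAA of late cell-cycle genes for 19.4% and 16.3%. E2F matches were found for 7 of 17 regulators of the G1/S step (41.2%), for 8 of 26 other replication genes (30.8%) and for 1 of 26 mitosis genes (3.85%). A match is a description of the letters in the window, and no test was made of these shares.

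The 6 tables held 26808 cell barcodes, and the 25154 with at least 500 detected genes were kept, 2667 to 5617 a library. Median UMIs per kept cell ran from 1940.5 in High-founded F6 to 10038 in High-founded F2, so depth differed more within groups than between them. Cells were split by the deposited Krt13 value, ln(1 + UMIs per 10000), into 15202 below 3 and 9952 at 3 or more, called Krt13-low and Krt13-high here. The Krt13-high cells carried more of the suprabasal gene Krt4 (1353 against 34.6 CPM, UMIs per 1000000, averaged over cells and 6 libraries) and of the superficial gene Sprr3 (140.3 against 4.37 CPM). The basal genes Col17a1 (549 against 96.6 CPM), Itgb4 (390.5 against 81.6 CPM) and Trp63 (86.6 against 34.3 CPM) were higher in Krt13-low cells, but the basal keratins Krt5 (3462 against 3247 CPM) and Krt14 (10658 against 9501 CPM) differed little. Krt13 below 3 is thus a range that holds basal cells by most markers, and not a layer seen in tissue. Of the 5 immune markers Ptprc was at 0 in all 6 libraries, and Cd3e, Lyz2 and Cd74 were under 1 CPM in each. Cd68, a lysosomal protein, was at 22.0, 15.2 and 19.8 CPM (Low-founded) and 10.8, 14.6 and 8.25 CPM (High-founded) over all cells, higher in every Low-founded library. Summed fibroblast, endothelial, melanocyte and neural markers reached at most 4.95 CPM over all cells of any library. Any 2 libraries shared at most 8 barcodes.

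The first comparison asked how far expression of the replication genes extended above the Krt13-low cells. Of the 41 members with enough reads to test, 38 were lower in Krt13-high cells and none was higher (limma on the 6 within-library differences of log2 level, Benjamini-Hochberg adjusted p under 0.05 over 11645 genes). In the same comparison 60.5% of all genes were called, 28.8% as lower and 31.7% as higher. The median log2 difference of the members was -1.11, against 0.00 for all tested genes. The 3 members not called were Slbp, Gins4 and Rrm1, and Orc1, at 0.826 CPM over all cells, was too low to be tested.

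TMM scaling sets the bulk of genes to no change. On plain CPM, where the median of all genes moved by -0.38, 1725 genes were called higher and 6799 lower in place of 3696 and 3349, and all 41 members were called lower with a median of -1.49. A mean over the cells of a layer cannot tell fewer expressing cells from less RNA per cell. The counts per cell given further on cannot separate them either, since less RNA in every cell also lowers a share over a minimum count. Krt13-high cells also had more UMIs per cell than Krt13-low cells in every library. With every cell thinned to 1000 UMIs, 34 of the 41 members were called lower and 0 higher, with a median of -1.14. Of all 11645 genes, 2668 were called lower and 2711 higher in that fit, with a median of -0.05.

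The size of the drop was expressed as the retained percent, the plain CPM in Krt13-high cells as a percent of that in Krt13-low cells of the same library. Values per library are given in the order F2, M3 and F6. Summed over the 42 genes, the level was 782, 821 and 755 CPM in Krt13-low cells of the Low-founded libraries, and 822, 1047 and 1008 CPM in those of High-founded libraries. In Krt13-high cells the sums were 331, 305 and 258 CPM in Low-founded libraries and 345.5, 351 and 312 CPM in High-founded libraries. The highest Krt13-high sum, 351 CPM, lay under the lowest Krt13-low sum, 755 CPM. The summed retained percent was 36.7% ± 4.68 (SD, n = 6), from 30.9% in High-founded F6 to 42.3% in Low-founded F2. Across the 41 tested members the median was 32.4%, against 76.0% for 11571 tested genes that could be given a value. Under 50% was retained by 36 of the 41 members and by 17.7% of those genes, and over 100% by no member and by 25.7% of them.

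**Figure D1:**
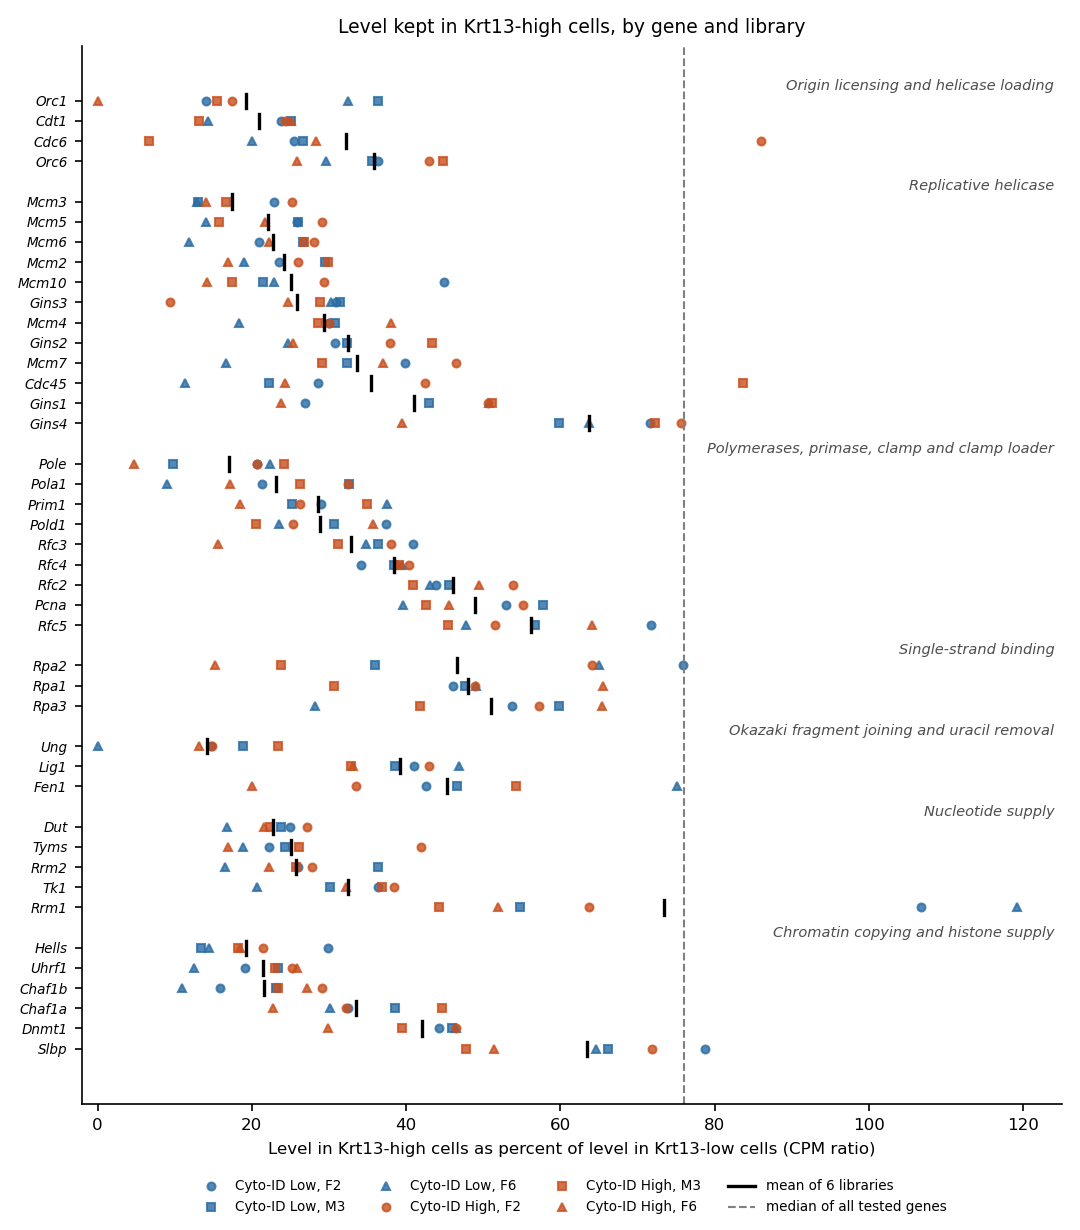
Level of each of the 42 genes in Krt13-high cells as a percent of its level in Krt13-low cells (horizontal axis, ratio of CPM), 1 symbol per library, blue for Low-founded libraries and orange for High-founded libraries, with the mean of 6 libraries as a black bar and genes grouped by role. Of the 41 tested means, 36 lie under 50%, left of the dashed line at 76.0%, the median of all tested genes, and Rrm1, Gins4 and Slbp sit farthest to the right.

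Among the licensing factors, Orc6, a subunit of the complex that marks origins, was at 28.5, 28.7 and 23.8 CPM in Krt13-low cells of Low-founded libraries and 28.5, 20.4 and 32.0 CPM in those of High-founded libraries. In Krt13-high cells it was at 10.4, 10.2 and 7.04 CPM (Low-founded) and 12.3, 9.13 and 8.27 CPM (High-founded), so the 2 layers did not overlap (log2 difference -1.01 ± 0.12 (SE), adjusted p = 1.03e-05). Cdt1, the factor that brings the MCM helicase to the origin, fell from 10.7 ± 2.00 to 2.30 ± 0.864 CPM (SD, n = 6) and retained 21.0% ± 5.63 (SD, n = 6). It was called lower (log2 difference -1.52 ± 0.14 (SE), adjusted p = 1.22e-06). Cdc6, its loading partner, was scarce, at 2.30 ± 0.707 CPM in Krt13-low cells, and its retained percent ranged from 6.63% to 86.0% among libraries.

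Most subunits of the MCM ring retained less than the median member. Mcm3 was at 18.8, 21.8 and 28.8 CPM in Krt13-low cells of Low-founded libraries and 20.6, 34.9 and 20.2 CPM in those of High-founded libraries. In Krt13-high cells it was at 4.30, 2.85 and 3.71 CPM (Low-founded) and 5.19, 5.802 and 2.83 CPM (High-founded) (log2 difference -1.92 ± 0.14 (SE), adjusted p = 2.17e-07). No library kept more than 25.2% of it, and the mean of 17.4% ± 5.33 (SD, n = 6) was the lowest among the 30 members with at least 10 CPM in Krt13-low cells. Mcm7 fell from 45.1 ± 10.3 to 14.5 ± 3.14 CPM (SD, n = 6; log2 difference -1.17 ± 0.15 (SE), adjusted p = 2.12e-05) and retained 33.6% ± 10.2 (SD, n = 6). The other subunits of the ring, Mcm2, Mcm4, Mcm5 and Mcm6, retained between 22.1% and 29.3%.

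The GINS subunits, which join the ring to form the active helicase, differed in how much was retained, with no test made between them. Gins2 retained 32.4% ± 7.24 (SD, n = 6) and was called lower, whereas Gins4 was at 25.0, 28.3 and 21.6 CPM in Krt13-low cells of Low-founded libraries and 20.3, 28.7 and 17.1 CPM in those of High-founded libraries, against 17.9, 16.9 and 13.7 CPM (Low-founded) and 15.3, 20.7 and 6.74 CPM (High-founded) in Krt13-high cells. Gins4 was lower in the Krt13-high cells of each library, yet the layers overlapped between libraries, and it did not pass (log2 difference -0.24 ± 0.13 (SE), adjusted p = 0.125; on plain CPM, log2 difference -0.64, called lower). Its retained percent was 63.7% ± 13.3 (SD, n = 6).

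Among the polymerase and clamp genes, Rfc2, a subunit of the loader that puts PCNA on DNA, was at 57.8 ± 25.6 CPM in Krt13-low and 25.9 ± 9.55 CPM in Krt13-high cells (SD, n = 6). It was lower in Krt13-high cells of every library (log2 difference -0.68 ± 0.07 (SE), adjusted p = 6.64e-06) and retained 46.1% ± 4.78 (SD, n = 6). Pcna, the clamp itself, retained 48.9% ± 7.41 (SD, n = 6) and Rfc5, a further loader subunit, 56.2% ± 10.2 (SD, n = 6). Pole, the catalytic subunit of the leading-strand polymerase, retained 17.1% ± 7.87 (SD, n = 6) and Pola1, that of the priming polymerase, 23.2% ± 9.19 (SD, n = 6). Pole was scarce, with a UMI in 2.36% of Krt13-low and 0.542% of Krt13-high cells (mean of 6 libraries). Pcna and the loader subunits are also used in DNA repair, which is background and was not measured here.

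Of the RPA genes, whose products coat single-stranded DNA, Rpa2 varied most. It was at 14.8, 18.3 and 15.0 CPM in Krt13-low cells of Low-founded libraries and 16.8, 27.9 and 20.3 CPM in those of High-founded libraries, against 11.2, 6.57 and 9.75 CPM (Low-founded) and 10.8, 6.64 and 3.09 CPM (High-founded) in Krt13-high cells. Its retained percent therefore ran from 15.2% to 75.8% (log2 difference -0.81 ± 0.25 (SE), adjusted p = 0.0150), and the call was lost without High-founded M3 (log2 difference -0.66, adjusted p = 0.0604). Lig1, the ligase that seals Okazaki fragments, fell from 38.7 ± 10.1 to 14.9 ± 3.07 CPM (SD, n = 6; log2 difference -0.90 ± 0.10 (SE), adjusted p = 8.72e-06). It retained 39.2% ± 5.52 (SD, n = 6), and Ung, which removes uracil from DNA, retained 14.2% ± 7.87 (SD, n = 6). Ung was scarce, with a UMI in 3.09% of Krt13-low and 0.606% of Krt13-high cells (mean of 6 libraries). In Low-founded F6 it was found in 0% of Krt13-high cells.

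Of the 5 nucleotide-supply genes, 4 retained under 50% and Rrm1 stood apart with the highest retained percent, with no test made between them. Dut, which destroys dUTP, was at 58.7, 68.7 and 50.8 CPM in Krt13-low cells of Low-founded libraries and 80.0, 101 and 130.2 CPM in those of High-founded libraries. In Krt13-high cells it was at 14.6, 16.4 and 8.54 CPM (Low-founded) and 21.7, 22.5 and 28.1 CPM (High-founded), with no overlap of layers (log2 difference -1.67 ± 0.09 (SE), adjusted p = 1.17e-08). Dut retained 22.8% ± 3.52 (SD, n = 6). Rrm1, the large subunit of ribonucleotide reductase, was at 44.1, 34.0 and 37.8 CPM in Krt13-low cells of Low-founded libraries and 54.6, 40.5 and 55.1 CPM in those of High-founded libraries, against 47.1, 18.6 and 45.1 CPM (Low-founded) and 34.7, 18.0 and 28.6 CPM (High-founded) in Krt13-high cells. It retained 73.4% ± 31.5 (SD, n = 6) and did not pass (log2 difference -0.12 ± 0.18 (SE), adjusted p = 0.603). Without High-founded M3 the Rrm1 difference was 0.012, and on plain CPM it was -0.53 and was called lower. Rrm2, the small subunit that forms the same enzyme, retained 25.8% ± 6.53 (SD, n = 6) and was called lower (log2 difference -1.31 ± 0.13 (SE), adjusted p = 2.76e-06). Rrm1 retained more than Rrm2 in each of the 6 libraries.

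Among the chromatin genes, Hells, a helicase of the SNF2 family needed for DNA methylation, was at 17.8 ± 9.43 CPM in Krt13-low cells and 3.47 ± 2.00 CPM in Krt13-high cells (SD, n = 6; log2 difference -1.71 ± 0.14 (SE), adjusted p = 5.78e-07) and retained 19.3% ± 5.93 (SD, n = 6). Uhrf1, which brings the methyltransferase to copied DNA, retained 21.5% ± 5.02 (SD, n = 6), and Dnmt1, that methyltransferase, 42.1% ± 6.54 (SD, n = 6). Slbp, which binds the stem-loop of histone mRNAs, was at 31.2, 29.9 and 20.7 CPM in Krt13-low cells of Low-founded libraries and 29.96, 27.8 and 39.6 CPM in those of High-founded libraries, against 24.6, 19.8 and 13.4 CPM (Low-founded) and 21.5, 13.3 and 20.4 CPM (High-founded) in Krt13-high cells. It was lower in each library but did not pass (log2 difference -0.24 ± 0.11 (SE), adjusted p = 0.0885; on plain CPM -0.65, called lower), and retained 63.4% ± 11.9 (SD, n = 6).

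Genes around the core list moved to different degrees in the same comparison. Of 34 other replication genes tested, 26 were lower and 1 was higher, with a median log2 difference of -0.74. The 1 that rose was Pold4, a small accessory subunit of polymerase delta (log2 difference 0.58 ± 0.05 SE), while Gmnn, which encodes the Cdt1 inhibitor geminin, went from 50.8 ± 12.1 to 30.5 ± 7.80 CPM and did not pass. Of 21 regulators of the G1/S step, 14 were lower and 3 were higher (Rb1, Ccne1 and Cdk6), with a median of -0.52. All 28 mitosis genes were lower, with a median of -1.21. Of 17 genes of replication stress and p53 signalling, 8 were lower and 5 were higher, with a median of -0.26. The 5 higher genes are close in share to the 31.7% of all genes called higher. They were Cdkn1a, Gadd45a, Gadd45b, Sesn2 and Mdm2, and Cdkn1a, the inhibitor of cyclin-dependent kinases, went from 159 ± 31.1 to 316 ± 50.2 CPM (SD, n = 6). These lists were described by counts and medians only, beside the median of 0.00 for all genes and the 28.8% of them called lower.

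Finer steps of Krt13 showed where the drop lay. The summed level of the 42 genes was 884 ± 142 CPM (SD, n = 6) in cells with no Krt13 UMI, 932 ± 192 at Krt13 of 1 to below 2, 721 ± 98.6 at 2 to below 3, 426 ± 72.8 at 3 to below 4, 279 ± 30.02 at 4 to below 5 and 208 ± 20.9 at 5 or more. Only 3 libraries had 50 cells above 0 and below 1, where the sum was 1070 ± 254 CPM (SD, n = 3). The lower steps depend on depth, since 1 Krt13 UMI gives a higher value in a cell with fewer UMIs. Cells with no Krt13 UMI numbered 2197 in High-founded F6 (median 1790 UMIs) and 794 in High-founded F2 (median 8563 UMIs). That step can thus hold unlike cells in different libraries. From the step of 1 to below 2 onward, the sum was lower at each further step in each of the 6 libraries. Over the same steps Krt5 stayed between 3208 and 3758 CPM. The sum of the 28 mitosis genes went from 645 ± 279 CPM with no Krt13 UMI to 49.6 ± 28.3 CPM at 5 or more.

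**Figure D2:**
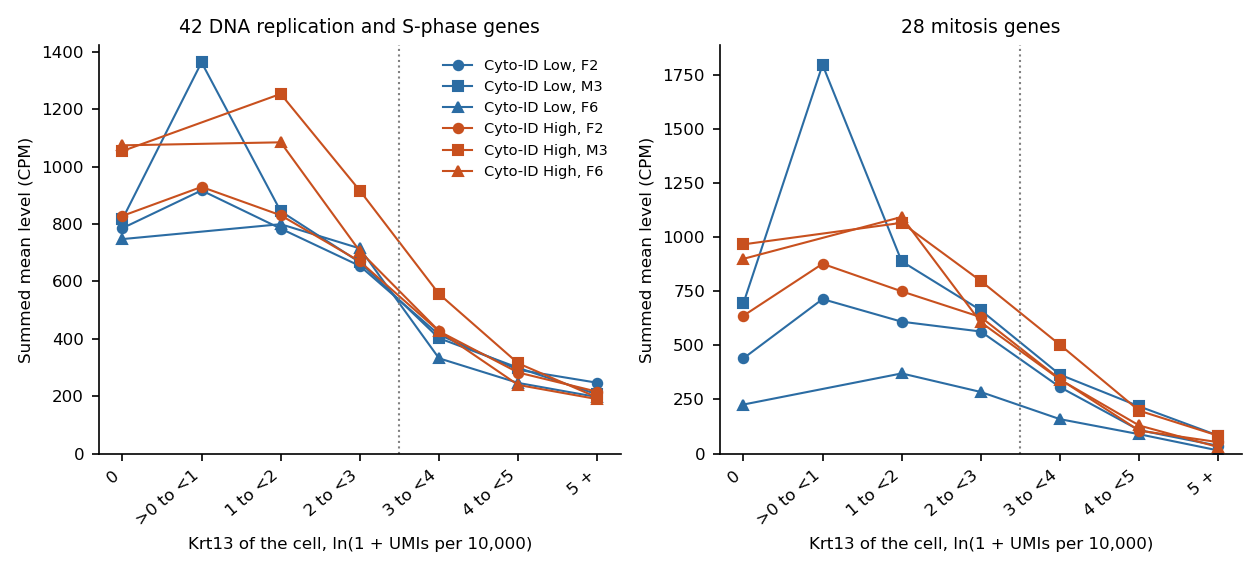
Summed mean level (CPM) of the 42 replication genes (left) and of 28 mitosis genes (right) against the Krt13 value of the cell, 1 line per library, with a dotted line at the value of 3 that separates Krt13-low from Krt13-high cells. The replication sum lies at 747 CPM or more in cells with no Krt13 UMI and between 189.6 and 247 CPM at Krt13 of 5 or more.

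In the highest step of Krt13, 24.2% ± 5.21 (SD, n = 6) of the summed level in cells with no Krt13 UMI, a base that depends on depth, was still measured. The members differed widely in this residue. Cdc6 was at 0 CPM in 5 of the 6 libraries there. Mcm3 stood at 3.75% of its level in cells with no Krt13 UMI, Mcm5 at 5.15%, Uhrf1 at 5.74% and Dut at 9.68% (ratios of the 6-library means). Pcna stood at 34.1%, Slbp at 43.8%, Gins4 at 53.5% and Rrm1 at 77.6%. Rrm1 was lower there in 4 of 6 libraries, and each of the other 41 genes in 6 of 6. Free RNA in droplets can add UMIs to any cell, and since these organoids held no cell class that should lack the 42 transcripts, its part in the residue was not tested.

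Counts per cell were then taken after each cell was thinned to 1000 UMIs, which 24807 cells allowed (115 shallower cells of Low-founded libraries and 232 of High-founded libraries were left out). A cell with at least 5 member UMIs of 1000 is called member-rich. Member-rich cells made up 2.09%, 3.63% and 1.71% of Krt13-low cells in Low-founded F2, M3 and F6, and 3.12%, 4.40% and 3.81% in High-founded libraries (43 of 2053 cells in Low-founded F2, for example, with a Wilson interval at 95% of 1.56% to 2.81%). In Krt13-high cells the shares were 0.271%, 0.357% and 0.175% in Low-founded libraries and 0.552%, 0.403% and 0.250% in High-founded libraries. The layers did not overlap, at 3.13% ± 1.04 against 0.335% ± 0.134 (SD, n = 6), or 490 of 14960 cells against 34 of 9847. In the cells that were not member-rich the summed level was also lower, at 759 ± 88.9 CPM in Krt13-low and 303 ± 29.7 CPM in Krt13-high cells (SD, n = 6). Cells with no member UMI at all were 55.4% of Krt13-low and 76.7% of Krt13-high cells. Without thinning, 26.6% of Krt13-low and 11.8% of Krt13-high cells had 5 or more, values that depend on depth. Intervals cover counting error only.

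Of the member-rich cells, 6.90% ± 2.31 (SD, n = 6) were Krt13-high, 2 to 9 cells a library, although Krt13-high cells were 39.6% ± 9.27 of all cells. The median Krt13 of such cells in a library was 3.52 ± 0.141 (SD, n = 6). They had a summed member level of 3911 ± 790 CPM against 4379 ± 201 CPM in the 490 member-rich Krt13-low cells. Member-rich cells of both layers were chosen by the same minimum of member UMIs, which itself makes the member level high in each. These levels thus cannot show how far expression of the members persisted in Krt13-high cells. At least 2 UMIs of mitosis genes were found in 47.4% ± 18.5 of the member-rich Krt13-high cells and 45.5% ± 8.82 of the member-rich Krt13-low cells. The remaining Krt13-high cells had a median Krt13 of 4.31 ± 0.215 (SD, n = 6), so the 2 sets were not matched for Krt13. Member-rich Krt13-high cells carried 74.2 ± 93.3 CPM of Krt4 against 1366 ± 373 in these remaining cells, and 122 ± 98.2 CPM of Cdkn1a against 316 ± 50.3. In the same cells, 16.3% ± 12.9 had a doublet score among the highest 5% of their library, against 2.11% ± 1.19 of member-rich Krt13-low cells; without cells of such scores the share of Krt13-high cells that were member-rich was 0.284% ± 0.0836. At Krt13 of 5 or more, 0 of 2327 cells were member-rich, which allows a share of up to 0.129% when the cells of the 6 libraries are pooled. That limit covers counting error only, not the spread between libraries.

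Members also differed in how strictly they were tied to cells rich in the others. Within Krt13-low cells, the level in cells with at least 5 UMIs of the other 41 genes was divided by the level in cells with none. For Mcm5 these levels were 149 ± 20.8 and 5.96 ± 4.21 CPM (SD, n = 6), a ratio of 25.0, and for Uhrf1 119.9 ± 69.7 and 5.56 ± 2.94 CPM, a ratio of 21.6. For Slbp they were 63.9 ± 37.3 and 24.0 ± 4.46 CPM, a ratio of 2.66, and for Gins4 64.0 ± 40.2 and 18.3 ± 4.66 CPM, a ratio of 3.495. Genes with a high ratio retained less in Krt13-high cells: over the 30 members with at least 10 CPM in Krt13-low cells, Spearman's rho was -0.59. The points share libraries, cells and depth, and the ratio also reflects how often a gene is detected, so this is a description. The level itself had a rho of 0.34 with the retained percent.

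**Figure D3:**
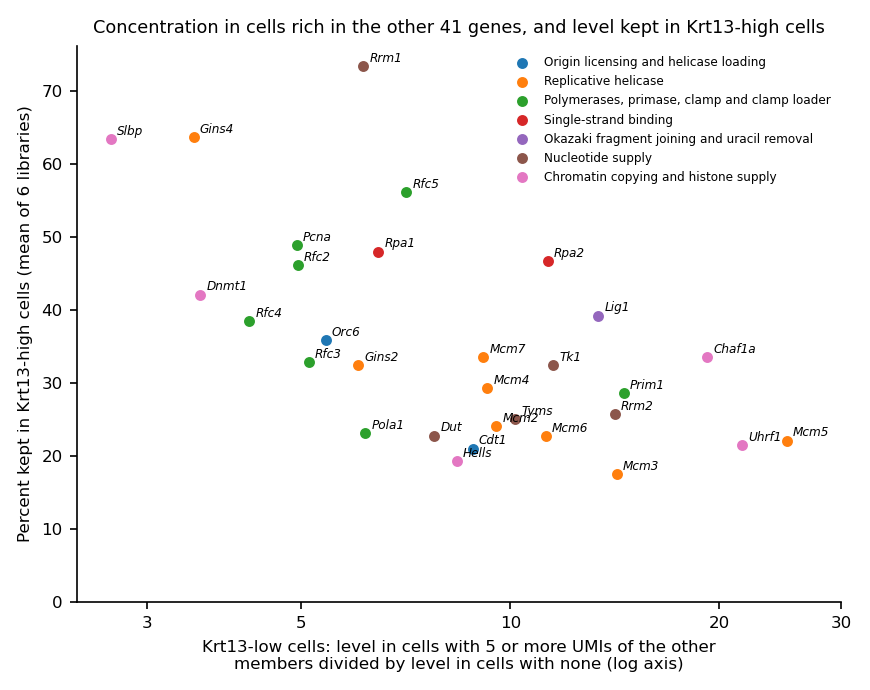
Retained percent (mean of 6 libraries) against the ratio of the level in Krt13-low cells with at least 5 UMIs of the other members to that in Krt13-low cells with none (log axis), for the 30 members with at least 10 CPM in Krt13-low cells, coloured by role. Slbp and Gins4 lie at the upper left with ratios of 2.66 and 3.495, and Uhrf1 and Mcm5 at the lower right with ratios of 21.6 and 25.0.

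The second comparison set the High-founded organoids against the Low-founded ones. Over all kept cells 0 of the 41 members passed (limma, Benjamini-Hochberg over 11645 genes), where 0.163% of all genes did, and adjusted p-values ran from 0.311 upward. At an unadjusted p under 0.05 there were 12 members (29.3%), against 8.08% of all genes. In direction, 39 of 41 members and 50.6% of all genes were higher in High-founded libraries, with a median log2 difference of 0.41 against 0.00 for all genes. The summed level was 593, 588 and 538 CPM in Low-founded libraries and 683, 696 and 817 CPM in High-founded libraries, so the groups did not overlap; on UMIs per cell, which depend on depth, they did. Of the 41 members, 11 were higher in every High-founded library than in every Low-founded library, as were 4.48% of all genes, and 0 lower in every one, as were 8.13%. These shares are on plain CPM. On the TMM-scaled CPM of the fits there were 13 such members and 7.62% of all genes, and 0 lower, as were 5.82%. A p that misses the threshold does not show that the groups are alike.

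The 4 members with the smallest p in this comparison were Tyms, Rrm2, Dut and Rpa1, and 3 of them act in nucleotide supply. Tyms, which makes dTMP, was at 11.3, 15.7 and 9.11 CPM in Low-founded libraries and 20.6, 21.2 and 23.1 CPM in High-founded libraries (log2 difference 0.93 ± 0.22 (SE), adjusted p = 0.311). Rrm2 was at 6.86, 7.43 and 3.88 CPM in Low-founded libraries and 10.6, 10.5 and 12.5 CPM in High-founded libraries (log2 difference 0.93 ± 0.24 (SE), adjusted p = 0.364). The groups did not overlap for either gene, and the lowest value of both was in Low-founded F6. Dut was at 40.3, 45.1 and 32.3 CPM (Low-founded) and 63.0, 61.3 and 102 CPM (High-founded) (log2 difference 1.01 ± 0.27 (SE), adjusted p = 0.377), with its highest value in High-founded F6. Rpa1, whose exons overlap another gene on the same strand, was at 8.36, 7.97 and 6.19 CPM (Low-founded) and 11.3, 11.9 and 11.7 CPM (High-founded) (log2 difference 0.68 ± 0.19 (SE), adjusted p = 0.407), again without overlap. In contrast Rfc2 (log2 difference -0.004 ± 0.37 (SE), adjusted p = 0.998) and Gins4 (log2 difference -0.04 ± 0.24 (SE), adjusted p = 0.976) were the 2 members not higher in High-founded libraries.

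**Figure D4:**
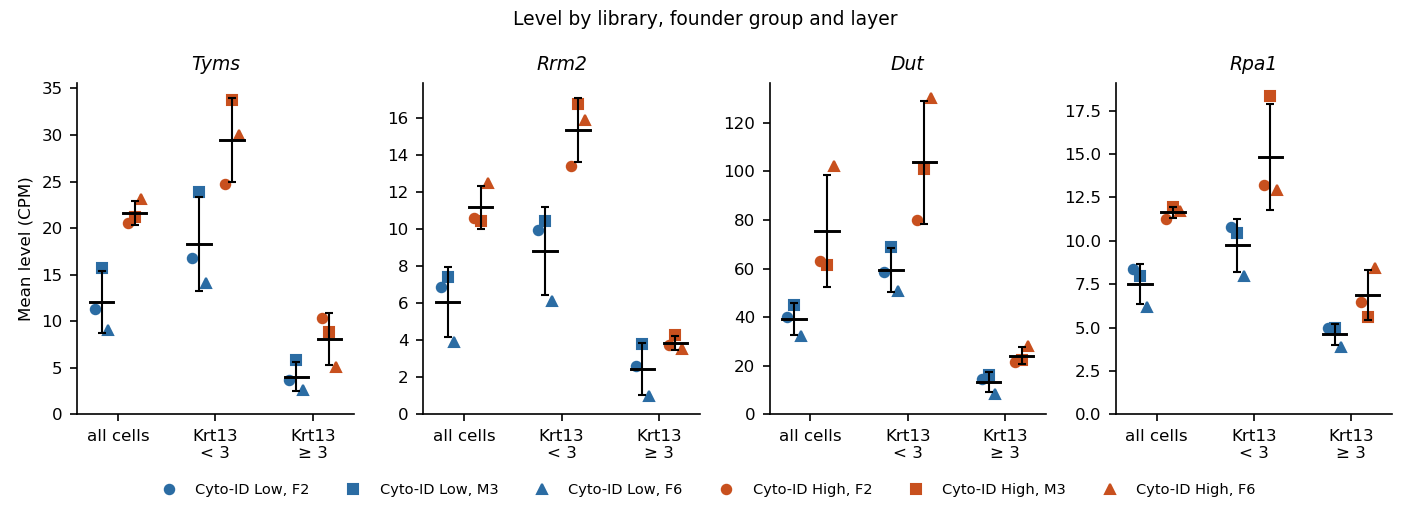
Mean level (CPM) of Tyms, Rrm2, Dut and Rpa1 by library in all kept cells, Krt13-low cells and Krt13-high cells, blue for Low-founded libraries and orange for High-founded libraries, with the group mean and SD in black (n = 3). In all cells and in Krt13-low cells every High-founded library lies above every Low-founded library for each of the 4 genes, and none of the differences passed after adjustment.

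The share of Krt13-high cells was 41.9%, 45.2% and 43.8% in Low-founded libraries and 29.1%, 50.5% and 27.4% in High-founded libraries. It was lower in the High-founded organoids of F2 and F6 and higher in those of M3. Its part in the founder comparison was not tested over all cells, and the comparison within each layer is given further on.

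Some markers of differentiation did not overlap between the founder groups. Over all cells 3 of the 7 suprabasal markers were higher in every High-founded library than in every Low-founded library, as were 4.48% of all genes on plain CPM. The other 4, the 8 basal and the 6 superficial markers overlapped. The 3 without overlap were Krtdap, Sbsn and Dsg1a. They were separated in the same way within Krt13-low cells, as were 4.02% of all genes. Krtdap, a secreted protein of differentiating keratinocytes, was at 97.3, 59.8 and 28.7 CPM (Low-founded) and 844, 793 and 1504 CPM (High-founded) over all cells, and at 46.0, 15.1 and 7.19 CPM (Low-founded) and 501, 334 and 995 CPM (High-founded) in Krt13-low cells. Sbsn was at 18.3, 23.1 and 16.4 CPM (Low-founded) and 35.01, 53.9 and 32.9 CPM (High-founded) in Krt13-low cells. The basal integrin Itgb4 went the other way there, at 607, 466 and 429.9 CPM (Low-founded) and 376, 283 and 182 CPM (High-founded), and was the 1 basal marker whose groups did not overlap. In these cells 10.0% of all genes were likewise lower in every High-founded library. In Krt13-low cells the summed suprabasal markers ran from 498 to 638 CPM (Low-founded) and 975 to 1432 CPM (High-founded), the basal ones from 14320 to 19754 CPM (Low-founded) and 10519 to 23552 CPM (High-founded) and the superficial ones from 1547 to 4431 CPM (Low-founded) and 707 to 2738 CPM (High-founded). The suprabasal sum did not overlap between groups, but it did without Krtdap, at 490.3 to 623 CPM (Low-founded) and 437 to 641 CPM (High-founded). Dsg1a was scarce, at 0 CPM in Low-founded F6 and at most 9.80 CPM over all cells of any library, and none of the other 20 markers was at 0 in any library. The part of these markers in the founder comparison was not tested.

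Within Krt13-low cells the comparison was close to that over all cells. None of 41 members passed (0.223% of all genes did), and 11 had an unadjusted p under 0.05 (26.8%, against 7.12% of genes). In direction, 38 members and 49.3% of all genes were higher in High-founded libraries, with a median of 0.44 against -0.005 for all genes. The smallest p-values were those of Rrm2 (log2 difference 0.89 ± 0.24 (SE), adjusted p = 0.443), Dut (log2 difference 0.92 ± 0.27 (SE), adjusted p = 0.529), Tyms (log2 difference 0.82 ± 0.25 (SE), adjusted p = 0.560) and Rpa1 (log2 difference 0.69 ± 0.22 (SE), adjusted p = 0.604). Rrm2 was at 9.95, 10.4 and 6.12 CPM in Low-founded libraries and 13.4, 16.7 and 15.9 CPM in High-founded libraries, without overlap. Of the 41, 9 were higher in every High-founded library, as were 4.02% of all genes, and 0 lower in every one, as were 10.0%. On TMM-scaled CPM there were 10 such members and 6.50% of all genes, and 0 lower, as were 6.35%. The summed level was 786 ± 33.3 CPM in Low-founded libraries and 959 ± 120 CPM in High-founded libraries (SD, n = 3), the nearest values being 821 CPM in Low-founded M3 and 822 CPM in High-founded F2. This separation depended on the setting. The sums overlapped from summed UMIs, without the highest doublet scores, with Krt13 divided at 2, on UMIs per cell and with at least 1000 genes per cell, where the means were 851 ± 62.7 and 1240 ± 361 CPM (SD, n = 3).

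Within Krt13-high cells none of 41 members passed (0.240% of all genes did), and 5 had an unadjusted p under 0.05 (12.2%, against 7.59% of genes). In direction, 32 members and 47.9% of all genes were higher in High-founded libraries, with a median of 0.25 against -0.02 for all genes. The smallest p-values were those of Dut, Cdc45, Tyms and Chaf1b. Dut was at 14.6, 16.4 and 8.54 CPM in Low-founded libraries and 21.7, 22.5 and 28.1 CPM in High-founded libraries (log2 difference 0.90 ± 0.28 (SE), adjusted p = 0.533). Cdc45, which joins the MCM ring at activation, was at 0.485, 0.795 and 0.307 CPM (Low-founded) and 1.63, 2.27 and 1.26 CPM (High-founded) (log2 difference 0.92 ± 0.29 (SE), adjusted p = 0.533). Chaf1b, a subunit of the histone chaperone that follows the fork, was at 1.33, 2.00 and 0.970 CPM (Low-founded) and 2.68, 3.502 and 2.59 CPM (High-founded) (log2 difference 0.77 ± 0.28 (SE), adjusted p = 0.642). On plain CPM the groups did not overlap for these 3 genes, whereas those of Tyms did (log2 difference 0.89 ± 0.31 (SE), adjusted p = 0.631). On TMM-scaled CPM those of Tyms did not overlap either. The separation of Cdc45 and Chaf1b rests on few cells. In Low-founded F6, 0.171% and 0.514% of 1167 Krt13-high cells held a UMI of Cdc45 and of Chaf1b. In High-founded F6 these shares were 0.325% and 0.488% of 1230 Krt13-high cells. Dnmt1 went the other way, at 15.1, 14.8 and 14.8 CPM in Low-founded libraries and 14.1, 12.6 and 11.2 CPM in High-founded libraries, and was the 1 member lower in every High-founded library, as were 6.66% of all genes. There were 7 members higher in every High-founded library, as were 5.10% of genes.

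**Figure D5:**
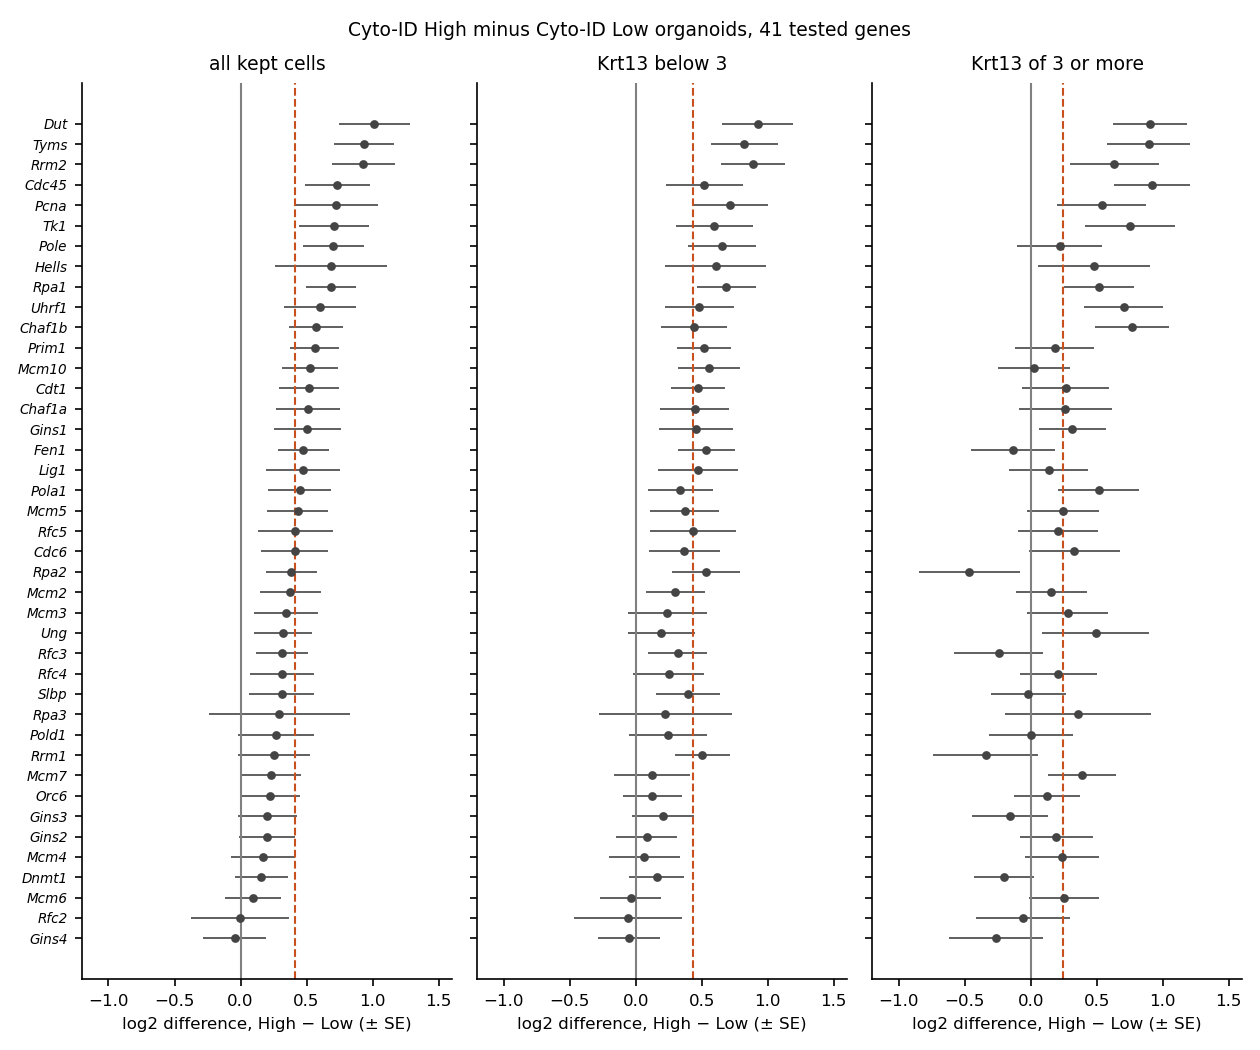
Log2 difference, High-founded organoids minus Low-founded organoids (± SE, TMM-scaled CPM + 1) for the 41 tested members in all kept cells, Krt13-low cells and Krt13-high cells, with 0 as a grey line and the median of the members as a dashed line. The medians lie at 0.41, 0.44 and 0.25, and no single member passed the adjusted threshold.

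Deviations of same-label libraries correlated at 0.761 (F2), 0.577 (M3) and 0.146 (F6). The F6 value was below 0.175, the highest of the pairs with different labels. With the labels taken as pairs, the fit was repeated with the label as a block. Calls over all genes then rose from 19 to 64 in all cells, from 26 to 81 in Krt13-low cells and from 28 to 75 in Krt13-high cells, and in each of these 0 members passed. At an unadjusted p under 0.05 there were 20, 17 and 7 members (48.8%, 41.5% and 17.1%), against 15.8%, 14.0% and 16.2% of all genes. Within the same-label pairs the median log2 difference of the members ran from 0.22 to 0.68 over all cells. It ran from 0.16 to 0.58 in Krt13-low cells and from -0.02 to 0.41 in Krt13-high cells.

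Genes of the surrounding lists were examined in the same way. Over all cells 0 genes passed among the other replication genes, G1/S regulators, mitosis genes and genes of replication stress and p53 targets, with median log2 differences of 0.38, 0.21, 0.85 and 0.29. At an unadjusted p under 0.05 in limma there were 10 of 34, 7 of 21, 19 of 28 and 4 of 17, against 8.08% of all genes (15.8% with the replicate block). The median of the mitosis genes was larger than the 0.41 of the replication genes, and no test was made between the lists. Member-rich cells were 2.48% ± 1.02 of Krt13-low cells in Low-founded libraries and 3.78% ± 0.644 in High-founded libraries (SD, n = 3), and the groups overlapped, with Low-founded M3 at 3.63% above High-founded F2 at 3.12%. Within each of the 3 same-label pairs the share was higher in the High-founded library. Over all cells the shares were 1.33%, 2.15% and 1.03% (Low-founded) and 2.37%, 2.36% and 2.83% (High-founded), and with at least 3 member UMIs those of Krt13-low cells were 8.04%, 9.005% and 7.51% (Low-founded) and 10.3%, 14.9% and 13.9% (High-founded). The groups did not overlap in either of these. In Krt13-low cells they did overlap at 2000 UMIs per cell, where Low-founded F6 was at 11.5% and High-founded F2 at 10.2%. They also overlapped there with at least 10 member UMIs, with at least 1000 genes, without the highest doublet scores and with Krt13 divided at 2 or 4. No test was made of the shares.

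The last comparison asked whether the drop above the Krt13-low cells differed between the founder groups. The summed retained percent was 42.3%, 37.1% and 34.2% in Low-founded libraries and 42.05%, 33.5% and 30.9% in High-founded libraries, and these overlapped. It was lower in the High-founded library of each of the 3 same-label pairs, by the least in F2. None of 41 members passed the test of the difference (0.232% of all genes did, 0.0859% higher and 0.146% lower), and 2 had an unadjusted p under 0.05 (4.88%, against 9.87% of genes). Rrm1 had the smallest p (log2 difference -0.85 ± 0.26 (SE), adjusted p = 0.301). It retained 107%, 54.7% and 119% in Low-founded libraries and 63.7%, 44.3% and 51.9% in High-founded libraries. Low-founded M3 lay with the High-founded libraries. Without this library, singled out for that reason, the limma difference was -1.23 with an adjusted p of 0.0102. In that fit 40 of 11645 genes were called higher and 54 lower, against 10 and 17 with all libraries. No member was called when any other library was left out. Rpa2 was the other member with an unadjusted p under 0.05 (log2 difference -0.996 ± 0.41 (SE), adjusted p = 0.450). Slbp (log2 difference -0.41 ± 0.20 (SE), adjusted p = 0.516) and Fen1 (log2 difference -0.67 ± 0.33 (SE), adjusted p = 0.521), the nuclease that trims Okazaki fragments, followed.

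The strand setting of the counting was not given in the sources used here. In the annotation (GENCODE M21), exons of 14 members overlap a gene on the opposite strand and those of Rpa1 overlap one on the same strand, so their levels could include reads of those genes. Levels were compared here between cells and libraries for each gene.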

How the data were processed

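Single-cell RNA-seq was measured in 6 organoid libraries, 3 per founder group. Per the labels, libraries were made with the Chromium 3' v3.1 kit, and the submitters' processing notes name Cell Ranger 6.0.0, Seurat 4 and the builds mm10 and GRCm38; other settings were not given in the sources used here. The deposited values are natural log values, ln(1 + UMIs per 10000 of the cell's total), made by the authors; they were whole multiples within a tolerance of 1e-06, so UMIs were read back. The tables hold 0 columns of other samples.

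Cells with at least 500 detected genes were kept (8231527 to 48873796 UMIs a library). CPM is the mean over cells of UMIs per 1000000. The 11645 genes that reached 1 CPM in 3 or more libraries were tested with limma 3.58.1 (R 4.3.3, trended eBayes, two-sided) on log2(TMM-scaled CPM + 1), with Benjamini-Hochberg adjustment at 0.05; fold changes on this scale understate those of low genes. The layer test used within-library differences. The fits were tested on simulated log2 levels with normally distributed noise, and not on simulated counts. Scrublet (scanpy 1.11.5) called at most 0.26% of a library's cells, too few to rely on, and no cell was removed as a doublet.

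F2, M3 and F6 label both groups. Deviations of same-label libraries from their group means correlated at 0.761, 0.577 and 0.146 over 8878 genes, so the label was taken to pair libraries, by the rule that every pair exceeds 0.1. Different-label pairs ran from -0.616 to 0.175, and the highest, Low F2 with High F6, was above the F6 pair. The SE and p-values printed for single genes between founder groups are from the fit without this pairing. Members and gene lists were chosen with earlier results of these data known. Genes described in full were, for the founder comparisons, the 4 members with the smallest p; for the layers, the 3 highest and 3 lowest retained percents among members with at least 10 CPM and the highest member of each role; others were named for their role. The alternatives tried were another scaling, filter, pseudocount, mean over cells, depth, cell filter, doublet scores, Krt13 division, pairing and leaving out each library. Promoters are from RefSeq and overlaps from GENCODE M21.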

Additional observations from a re-analysis of the deposited data

How the results depend on the processing

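In the layer comparison between 34 and 41 members were lower and 0 higher under the 16 alternatives run. Genes called lower ran from 2668 (thinned, with 34 members) to 6799 (plain CPM, with 41 members). Genes called higher ran from 1725 (plain CPM) to 3845 (summed UMIs). These are counts of 11645 genes, or of 20465 with no filter. In the founder comparisons 0 members passed under any alternative, and the median stayed above 0 in each. The layer median of the members was -1.49 on plain CPM, -1.47 on UMIs per cell and -0.86 with Krt13 divided at 2. The Rrm1 difference ran from -0.28 to 0.012 (without High-founded M3) when 1 library was left out; the cause was not tested. Slbp passed under 6 alternatives, Gins4 under 3 and Rrm1 under 1 (plain CPM), and Rpa2 was lost with no filter, where more genes were tested, and without High-founded M3.

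The number of all genes called moved more, and the cause was not tested except that no filter tests more genes and leaving out a library fewer samples. Over all cells it was 0 with no filter, 5 with a pseudocount of 0.1, 64 with the replicate block and 9 to 26 without 1 library. In Krt13-low cells it was 1 with no filter, 17 thinned, 16 with at least 1000 genes per cell, 81 with the block and 6 to 44 without 1 library. In Krt13-high cells it was 0 with no filter, 6 with a pseudocount of 0.1, 14 thinned, 75 with the block and 11 to 30 without 1 library. For the difference between layer differences it was 0 with no filter, 9 with a pseudocount of 0.1, 17 thinned, 2 with at least 1000 genes, 17 without high doublet scores, 17 and 9 with Krt13 divided at 2 and 4, and 4 to 94 without 1 library, with 0 to 1 members. The block was run for the founder comparisons only and changed no call of a member.

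The summed retained percent was 31.9 from summed UMIs, 46.6 with Krt13 divided at 2 and 43.8 on UMIs per cell. Member-rich cells in Krt13-low cells were 13.6% at 2000 UMIs, 10.6% with at least 3 member UMIs, 0.0904% with at least 10 and 4.31% with at least 1000 genes. In Krt13-high cells they were 1.49% at 2000 UMIs, 1.67% and 0.0354% with at least 3 and 10, and 0.792% and 0.0478% with Krt13 divided at 2 and 4. Members under 10 CPM in Krt13-low cells rest on few UMIs in the shallower libraries.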
